A study of Rattus norvegicus with 8 samples.

Results

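The genes described here are 10 members of the S100 and annexin families, *S100a4*, *S100a6*, *S100a8*, *S100a9*, *S100a10*, *S100a11*, *Anxa1*, *Anxa2*, *Anxa3* and *Anxa5*, in the hypothalamus of rats given retinoic acid (RA). They were chosen by name, with earlier results of these data known, and are 10 of the 15159 named genes on the array, each with 1 probe. Male F344 rats held in a short photoperiod (SD) received 5 μl of RA or vehicle into the third ventricle (ICV) and were killed 24 hrs later, and RNA was taken from hypothalamic blocks. The study's methods give all-trans RA at 1e-04 M in saline with 10% DMSO and the same solvent as vehicle, whereas the labels of the arrays give 1e-05 M and name saline, so the dose behind these values is not settled. There were 4 rats per treatment. Both groups were injected, and uninjected rats are not among these arrays. A tissue block holds many cell types, so more cells of a type and more RNA per cell cannot be told apart.

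The 8 arrays were two-colour Agilent arrays of a single slide, each hybridised with an RA and a vehicle sample labelled in different dyes. Arrays 1, 3, 6 and 8 carried RA in Cy5, and arrays 2, 4, 5 and 7 carried it in Cy3. Arrays 1 to 4 formed row 1 of the slide and arrays 5 to 8 row 2. Every ratio below is the log2 ratio of RA over vehicle within 1 array, after background correction and loess normalisation, and is positive where RA was higher. The log2 fold change is the mean over the 8 arrays, with the standard error (SE) of a limma fit on 4 pairs of arrays, 1 of each dye order. Which arrays carried the same RNA is not given in the sources used here, so the fit was made in all 24 pairings and the highest p was taken. A gene was called at an unadjusted p under 0.01, the threshold of the methods, and adjusted p values cover all 30367 probes. These p values measure only the spread between arrays made from 4 rats per treatment, and each SD over 8 arrays covers rats that were measured more than once. Of all probes, 988 were called, whereas 0 reached an adjusted p under 0.05 in limma and 3292 an unadjusted p under 0.05. The share of probes well above background was 57.4% to 74.6% in RA and 61.2% to 74.5% in vehicle. Of 14 hypothalamic neuropeptide genes measured, 13 were well above background in both channels of all 8 arrays.

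S100 proteins are small calcium-binding proteins of the EF-hand type that act mostly as dimers, inside cells as calcium sensors and outside cells as signals. Annexins bind phospholipid membranes when calcium rises and take part in membrane repair, vesicle traffic and the control of inflammation. The families meet, since S100A10 binds annexin A2 and S100A11 binds annexin A1. In the brain, several of these genes are known from reactive astrocytes, microglia and infiltrating myeloid cells, and S100A8 and S100A9 are abundant in neutrophils and monocytes.

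After RA, 8 of the 10 genes were called higher and 0 lower, against 3.52% of all 15159 named genes called higher and 0.792% called lower. Because the genes were chosen with earlier results of these data known, this count is a description and not an independent test. Among the 9463 named genes that were well above background in both channels of all arrays, 4.61% were called higher. The exceptions were *S100a8*, which was higher on 7 of 8 arrays but missed the threshold, and *Anxa5*, which had a log2 fold change of 0.02 (SE 0.09). The ratio was above 0 on all 8 arrays for 8 of the 10 genes, against 4.08% of named genes. The median log2 fold change was 0.70 over the 10 genes and -0.0046 over all named genes. No adjusted p fell under 0.05, as the lowest over all probes was 0.222. An exact two-sided sign-flip test on 4 pair means gave p = 0.125 for 9 of the genes in all 24 pairings, which is the smallest p that 4 pairs allow, and between 0.25 and 1 for *Anxa5*.

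The levels in the groups nevertheless overlapped for every gene. For 0 of the 10 was the lowest RA level above the highest vehicle level, a separation seen in 0.264% of named genes. The values compared are therefore the ratios within each array. Plain subtraction of the local background left 2 of the 10 genes called (*S100a11* and *Anxa3*), with a median log2 fold change of 0.83, whereas 7 were called without background correction, with a median of 0.68. Agilent's own log ratio, which differs in background correction and normalisation, left 1 called (*S100a11*), with a median of 0.81. In these settings all signs stayed positive except that of *Anxa5* with Agilent's ratio.

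**Figure D1:**
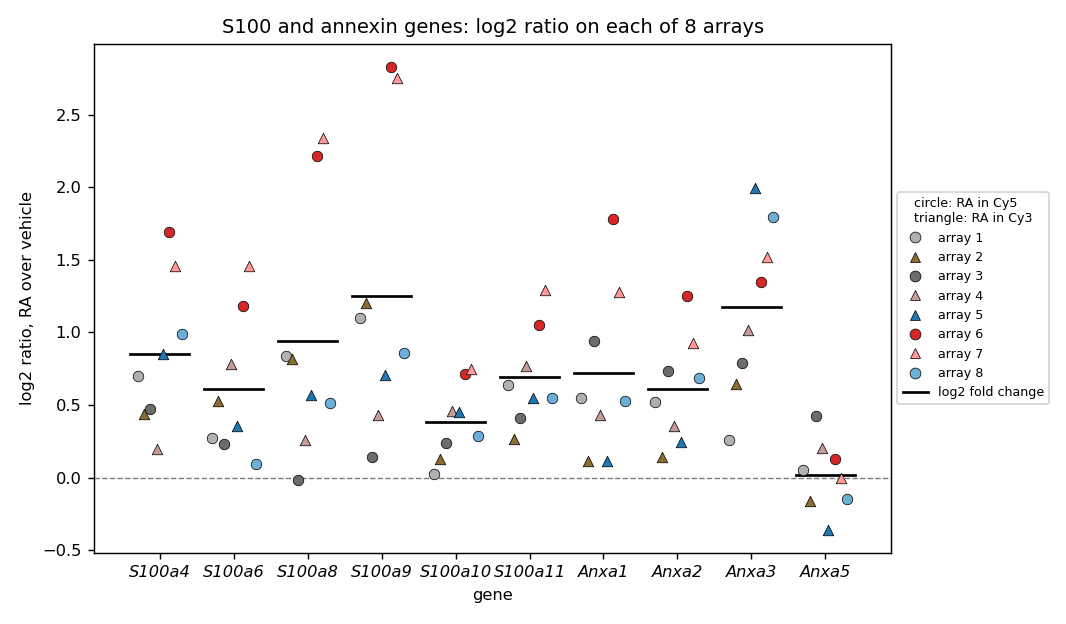
Log2 ratio of RA over vehicle (vertical axis) of the 10 S100 and annexin genes (horizontal axis) on each of 8 arrays. Circles are arrays with RA in Cy5, triangles those with RA in Cy3, and black bars the log2 fold change. Arrays 6 and 7 hold the highest or second highest point for 8 genes, whereas arrays 5 and 8 do so for *Anxa3*, and *Anxa5* lies on both sides of 0.

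The ratios were not even across arrays. The median over the 10 genes was 1.30 on array 6 and 1.38 on array 7, against 0.35 to 0.54 on the other 6 arrays. Arrays 6 and 7 were of opposite dye order and lay in row 2 of the slide. Each was among the 2 highest arrays for 8 of the 10 genes. Whether they carried the same RNA is not given in the sources used here. Ratios of the choroid plexus marker *Ttr* came in like couples of opposite dye order. They were 1.76 and 1.74 on arrays 1 and 2, and 0.73 and 0.57 on arrays 3 and 4. On arrays 5 and 8 they were 1.21 and 1.37, and on arrays 6 and 7 they were -4.48 and -5.11. Arrays 6 and 7 may thus be 1 pair of samples measured in both dye orders, which was not tested. With arrays 6 and 7 left out, 9 of the 10 genes were called, *S100a8* included, and their SE was smaller than over all arrays for 8 of them, the exception being *Anxa3*. The median log2 fold change was then 0.47. By slide row, the median log2 fold change over the genes was 0.46 in row 1 and 0.89 in row 2, and 8 genes were called within either row alone, though not the same 8. *S100a8* was called in both rows, *S100a10* was not called in row 1, *S100a6* was not called in row 2, and *Anxa5* was called in neither. If the couples of *Ttr* mark shared samples, each row held different rats, so slide row and rats cannot be told apart. A fit within 1 row has only 2 pair means, so its p values in limma lean on variances moderated across probes. The mean ratio was higher in row 2 than in row 1 for 9 of the genes and above 0 in both dye orders for 9, *Anxa5* being the exception to both.

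The 250 bases before the transcript start are shown for 5 of the genes, to set the promoters of genes with a rise beside that of *Anxa5*. The sequences are from RefSeq on build GRCr8, 5′ to 3′ on the strand of the gene. A promoter was found for 8 of the 10 genes, and *S100a8* and *S100a10* had no entry. Capitals mark matches, on either strand, to AGGTCA (the half-site bound by RA receptors and other nuclear receptors), TGANTCA (AP-1), TTCNNNGAA (STAT), TTGCNNAA (C/EBP core) and TATAAA, the core promoter box named after its letters.
*S100a4* (chr2:178388279-178388528, plus strand): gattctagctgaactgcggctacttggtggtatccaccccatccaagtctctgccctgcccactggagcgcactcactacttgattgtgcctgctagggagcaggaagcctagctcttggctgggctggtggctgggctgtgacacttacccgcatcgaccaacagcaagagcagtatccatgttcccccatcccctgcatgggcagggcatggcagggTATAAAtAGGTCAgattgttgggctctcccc
*S100a9* (chr2:178490623-178490872, minus strand): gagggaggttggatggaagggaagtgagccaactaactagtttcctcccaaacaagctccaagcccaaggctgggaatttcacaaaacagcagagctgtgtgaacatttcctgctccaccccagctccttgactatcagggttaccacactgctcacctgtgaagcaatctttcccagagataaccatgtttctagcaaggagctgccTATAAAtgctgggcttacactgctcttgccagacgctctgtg
*Anxa1* (chr1:227303733-227303982, minus strand): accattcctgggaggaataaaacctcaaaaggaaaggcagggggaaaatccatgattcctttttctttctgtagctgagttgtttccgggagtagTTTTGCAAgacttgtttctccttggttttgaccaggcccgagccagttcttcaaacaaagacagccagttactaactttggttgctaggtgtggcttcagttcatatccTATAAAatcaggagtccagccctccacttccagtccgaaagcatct
*Anxa3* (chr14:13085598-13085847, minus strand): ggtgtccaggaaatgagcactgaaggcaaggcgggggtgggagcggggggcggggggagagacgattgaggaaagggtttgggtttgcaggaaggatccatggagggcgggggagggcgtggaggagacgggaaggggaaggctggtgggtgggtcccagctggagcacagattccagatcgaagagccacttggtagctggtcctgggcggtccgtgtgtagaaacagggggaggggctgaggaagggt
*Anxa5* (chr2:121272697-121272946, minus strand): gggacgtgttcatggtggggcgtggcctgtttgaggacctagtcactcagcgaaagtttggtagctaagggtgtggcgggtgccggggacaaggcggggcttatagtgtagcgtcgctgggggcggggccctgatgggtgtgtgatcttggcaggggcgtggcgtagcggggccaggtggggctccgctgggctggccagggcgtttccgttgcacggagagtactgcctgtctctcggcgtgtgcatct
*S100a4* had TATAAA beginning 31 bases before the start and AGGTCA at 24 bases, separated by 1 base. Of 33469 rat promoters of this length, 14.1% held AGGTCA, and *S100a4* was the only one of the 8 that did. TATAAA was found in *S100a4*, *S100a9*, *Anxa1* and *Anxa2*, 4 of 8 against 12.9% of all promoters, between 31 and 46 bases before the start. *Anxa1* held the C/EBP core on the minus strand at 155 bases, and 9.22% of promoters held that motif. *Anxa2* held TGAGTCA at 123 bases, and 6.34% of promoters held the AP-1 motif. The STAT motif was in 0 of the 8 promoters and in 7.67% of all. *S100a6*, *S100a11*, *Anxa3* and *Anxa5* held none of these letters in this window. A match is a run of letters and was not tested as a binding site.

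*S100a8* and *S100a9* encode the subunits of calprotectin, a metal-binding complex of neutrophils and monocytes that signals through Toll-like receptor 4 and the receptor RAGE. *S100a9* had ratios of 1.10, 0.14, 2.83 and 0.86 on arrays 1, 3, 6 and 8, and of 1.20, 0.43, 0.71 and 2.75 on arrays 2, 4, 5 and 7. All 8 were positive, but arrays 6 and 7 stood far above the rest and array 3 was near 0. Its log2 level ranged from 7.21 to 9.91 in RA (mean 8.31 ± 1.02, SD, n = 8 arrays) and from 6.65 to 7.70 in vehicle (mean 7.06 ± 0.31). The vehicle range was narrow and the RA range wide. The vehicle levels lay not far above those of probes never well above background, such as *Elane* (mean 6.12 in vehicle). How far this floor narrowed the vehicle range was not tested. The log2 fold change was 1.25 (SE 0.35), or 2.38-fold, and the unadjusted p of 0.00844 in limma became an adjusted p = 0.299. Over all 8 arrays it was rank 45 of 15159 named genes and the highest of the 10 genes, an order that turned without arrays 6 and 7, where *Anxa3* was at 1.08, without arrays 1 and 2, 1 and 7, 6 and 2 or 6 and 4, and with RA in Cy3 alone. Without arrays 6 and 7 the log2 fold change of *S100a9* was 0.74, still called, whereas the call was lost when arrays 1 and 2, 1 and 4, 1 and 5, 8 and 2 or 8 and 5 were left out, with log2 fold changes of 1.29 to 1.41. It was also lost without background correction, with the deposited ratios, in a fit of bright probes only and with RA in Cy5 alone. The value was 0.72 in slide row 1 and 1.78 in row 2.

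*S100a8* followed the same arrays. Its ratios were 0.84, -0.01, 2.22 and 0.51 on arrays 1, 3, 6 and 8 and 0.81, 0.26, 0.57 and 2.34 on arrays 2, 4, 5 and 7, so that arrays 6 and 7 were again highest and array 3 was just under 0. The log2 level was 7.84 ± 0.79 in RA and 6.90 ± 0.34 in vehicle (SD, n = 8 arrays), and the probe was well above background in vehicle on 7 of 8 arrays. The log2 fold change of 0.94 (SE 0.30) had an unadjusted p of 0.0164 in limma and an adjusted p = 0.339, so that it was not called, although 18 of the 24 pairings had a p under 0.01. It was called in limma with slide row as a block (unadjusted p of 0.00112, adjusted p = 0.0236). That fit took the 8 arrays as independent, although rats were measured more than once. *S100a8* was also called with a random block for pairs (0.00399, adjusted p = 0.125), and within row 1 (0.00515) or row 2 (0.00664) alone. It was called in only 14 of the 33 alternative settings, and in 6 of the 16 with 1 array of each dye order left out. Without arrays 6 and 7 the log2 fold change was 0.50 and passed the threshold. Plain background subtraction gave 1.63 for *S100a8* and 1.90 for *S100a9*, larger by more than 1.5 times, and neither was then called. The ratio of *S100a9* was above that of *S100a8* on 8 of 8 arrays, by 0.14 to 0.61 (mean 0.31, SD 0.16).

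*S100a4*, known from motile and fibroblast-like cells, encodes a partner of non-muscle myosin IIA. Its ratios were 0.70, 0.47, 1.69 and 0.99 on arrays 1, 3, 6 and 8 and 0.44, 0.20, 0.85 and 1.46 on arrays 2, 4, 5 and 7. Every array was positive, and the 4 arrays of row 2 were each above the 4 of row 1. In RA its log2 level was 10.98 ± 0.68, and in vehicle 10.13 ± 0.27. *S100a4* thus rose by 0.85 on the log2 scale (SE 0.18), or 1.80-fold (unadjusted p of 0.00188, adjusted p = 0.250). Within rows it was 0.45 in row 1 and 1.25 in row 2. Its promoter is the one shown with the nuclear receptor half-site.

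*S100a6* encodes calcyclin, which binds the calcyclin-binding protein. Its ratios were 0.27, 0.23, 1.18 and 0.09 on arrays 1, 3, 6 and 8 and 0.52, 0.78, 0.35 and 1.46 on arrays 2, 4, 5 and 7, positive on all, with array 8 lowest at 0.09. Its log2 level was 10.61 ± 0.52 in RA and 9.99 ± 0.38 in vehicle. The rise in *S100a6* was 0.61 on the log2 scale (SE 0.16; unadjusted p of 0.00693, adjusted p = 0.289). It fell to 0.38 without arrays 6 and 7, still called, and the call was lost without arrays 1 and 2, 1 and 4, 3 and 4 or 8 and 4, with the arrays of RA in Cy5 alone, within row 2 alone and in a fit of bright probes only.

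*S100a10* encodes the partner of annexin A2 in a membrane complex that binds plasminogen and its activator. It had the smallest rise among the genes called, with ratios of 0.03, 0.24, 0.71 and 0.29 on arrays 1, 3, 6 and 8 and 0.13, 0.46, 0.45 and 0.75 on arrays 2, 4, 5 and 7. All were positive, array 1 only just. The log2 level was 11.45 ± 0.28 in RA and 11.07 ± 0.16 in vehicle, and the log2 fold change was 0.38 (SE 0.10, 1.30-fold, unadjusted p of 0.00494, adjusted p = 0.276). In row 1 alone it was 0.21 and not called, with an unadjusted p of 0.0236. It also lost the call without arrays 3 and 4, 3 and 5, 3 and 7, 8 and 4 or 8 and 5, and with RA in Cy5 alone.

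*S100a11* encodes calgizzarin, the partner of annexin A1. Its ratios were 0.64, 0.41, 1.05 and 0.55 on arrays 1, 3, 6 and 8 and 0.27, 0.77, 0.55 and 1.29 on arrays 2, 4, 5 and 7. No array lay near 0, and *S100a11* had one of the smallest spreads relative to its rise. Levels on the log2 scale were 8.36 ± 0.45 in RA and 7.67 ± 0.23 in vehicle. *S100a11* rose 1.61-fold, a log2 fold change of 0.69 (SE 0.12; unadjusted p of 7.07e-04, adjusted p = 0.222). It was the only gene of the 10 to be called under all 33 alternative settings, with log2 fold changes between 0.52 and 0.97. The rat annotation lists pseudogenes or further copies of *S100a10*, *S100a11* and *Anxa2*, and whether the probes also bind their transcripts was not tested.

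**Figure D2:**
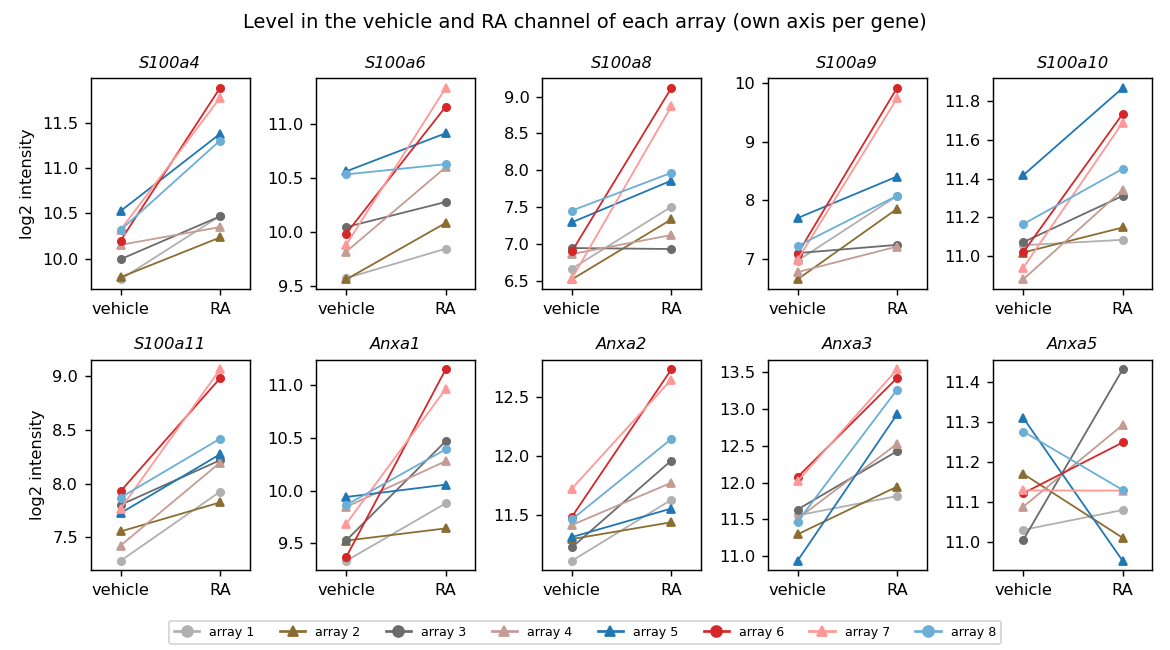
Log2 intensity in the vehicle and the RA channel (horizontal axis) of each array for the 10 genes, each on its own vertical axis, with a line joining both channels of 1 array and markers as in the plot of ratios. Lines rise on all 8 arrays for 8 genes and on 7 arrays for *S100a8*, while the ranges of the channels overlap in each gene and the lines of *Anxa5* cross.

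*Anxa3*, an annexin of myeloid cells and microglia, rose most among the annexins. Its ratios were 0.26, 0.79, 1.35 and 1.79 on arrays 1, 3, 6 and 8 and 0.65, 1.02, 1.99 and 1.52 on arrays 2, 4, 5 and 7. Arrays 5 and 8 were highest here, not 6 and 7, and the 4 arrays of row 2 were each above the 4 of row 1. The log2 level ranged from 11.82 to 13.54 in RA (mean 12.73 ± 0.66) and from 10.94 to 12.08 in vehicle (mean 11.56 ± 0.37). The log2 fold change was 1.17 (SE 0.21), or 2.25-fold, which was rank 56 among named genes (unadjusted p of 6.28e-04, adjusted p = 0.222). It was 0.68 in row 1 and 1.66 in row 2, and 1.08 without arrays 6 and 7. The call was kept in all settings except Agilent's log ratio, where the unadjusted p was 0.0147.

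*Anxa1* encodes annexin A1, which dampens inflammation through formyl peptide receptors and was first known as an inhibitor of phospholipase A2. Its ratios were 0.55, 0.94, 1.78 and 0.53 on arrays 1, 3, 6 and 8 and 0.12, 0.43, 0.12 and 1.28 on arrays 2, 4, 5 and 7. All were positive, with arrays 2 and 5 lowest. The log2 level was 10.35 ± 0.51 in RA and 9.64 ± 0.23 in vehicle, and the log2 fold change was 0.72 (SE 0.19, 1.64-fold, unadjusted p of 0.00593, adjusted p = 0.283). On the arrays with RA in Cy5 the mean was 0.95, whereas with RA in Cy3 it was 0.49 and not called (unadjusted p of 0.0226 in limma). Without arrays 6 and 7 it was 0.45, still called, and the call was lost without arrays 1 and 4, 3 and 2, 3 and 4 or 3 and 5.

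*Anxa2*, the binding partner of S100A10, had ratios of 0.52, 0.74, 1.25 and 0.68 on arrays 1, 3, 6 and 8 and 0.14, 0.36, 0.24 and 0.93 on arrays 2, 4, 5 and 7. It was higher on every array, and here too arrays 6 and 7 were highest. Mean log2 levels were 11.99 ± 0.49 in RA and 11.38 ± 0.19 in vehicle. *Anxa2* rose by 0.61 on the log2 scale (SE 0.12, 1.52-fold, unadjusted p of 0.00101, adjusted p = 0.227). On the arrays with RA in Cy5 the mean was 0.80, and on those of the other order 0.42, a difference that was not tested. Within partners, the ratio of *S100a10* was above that of *Anxa2* on 2 of 8 arrays (mean difference -0.23, SD 0.30). That of *S100a11* was above that of *Anxa1* on 6 of 8 (mean difference -0.03, SD 0.40). Neither mean difference exceeded its SD over the 8 arrays, but that SD includes the difference between dye orders. *S100a10* minus *Anxa2* was -0.54 to -0.40 with RA in Cy5 and -0.18 to 0.21 with RA in Cy3. *S100a11* minus *Anxa1* was -0.73 to 0.10 with RA in Cy5 and 0.01 to 0.43 with RA in Cy3. Within a dye order the partners were not tested. The log2 fold changes of *S100a11* and *Anxa1* were 0.97 and 0.76 with plain background subtraction, and 0.95 and 0.74 with Agilent's log ratio. The sign of that mean difference thus turned with the processing. *S100a10* stayed below *Anxa2*, at 0.39 and 0.62 with plain subtraction and 0.38 and 0.61 with Agilent's log ratio.

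*Anxa5* encodes annexin A5, which binds phosphatidylserine on dying cells. Its ratios were 0.05, 0.43, 0.13 and -0.15 on arrays 1, 3, 6 and 8 and -0.16, 0.20, -0.36 and -0.00039 on arrays 2, 4, 5 and 7. They lay on both sides of 0 in each dye order, and arrays 6 and 7 did not stand out. Its mean log2 level was 11.16 ± 0.16 in RA and 11.14 ± 0.11 in vehicle. The log2 fold change of 0.02 (SE 0.09) had an unadjusted p of 0.843 in limma (adjusted p = 0.972), and its sign changed with the dye order and the slide row. The data do not show that *Anxa5* was unaffected, only that a difference was not found at this spread.

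The other genes of both families were read for comparison. Of 10 other S100 genes measured (of 12 listed), 0 were called in limma in either direction and 1 had an unadjusted p under 0.05, with a median log2 fold change of 0.08. That gene was *S100b*, the classical S100 gene of mature astrocytes, whose ratio was below 0 on 8 of 8 arrays, with a log2 fold change of -0.22 (SE 0.07, unadjusted p of 0.0169 in limma). *S100a3* was at 0.20 (SE 0.10), with 0.62 and 0.59 on arrays 6 and 7 and -0.04 to 0.21 on the rest. *S100a5* was at 0.11 and *S100g* at -0.10, each on both sides of 0 over the arrays. *S100a7a*, *S100a7l2* and *S100z* were not well above background on any array. In the rat annotation, *S100a3*, *S100a4*, *S100a5*, *S100a6*, *S100a7a*, *S100a8* and *S100a9* lie together in this order on chromosome 2, so genes that were called (*S100a4*, *S100a6* and *S100a9*) and genes that were not (*S100a3*, *S100a5*) are close neighbours there.

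Of 7 other annexins measured (of 8 listed), 1 was called. *Anxa4*, an annexin of epithelial cells, had a log2 fold change of 0.28 (SE 0.08, unadjusted p of 0.00742, adjusted p = 0.295), with 0.12 in row 1 and 0.45 in row 2, and was higher on 8 of 8 arrays. *Anxa8* was higher on 8 of 8 arrays as well but by 0.15 (unadjusted p of 0.0245 in limma), with the probe well above background on 5 of 8 arrays in each channel. *Anxa7* was at 0.14, *Anxa11* at 0.12, and *Anxa10* and *Anxa13* were not well above background on any array. The median over the 7 genes was 0.12.

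Of 13 partner and receptor genes measured (of 15 listed), 1 was called. *Pla2g4a*, the cytosolic phospholipase A2, was at 0.44 (SE 0.11, unadjusted p of 0.00459, adjusted p = 0.270) and higher on 7 of 8 arrays, with 0.19 in row 1 and 0.70 in row 2. *Plaur*, the urokinase receptor, was not well above background in vehicle on any array and was so in RA on 4, which gives a level at least 1.17-fold higher in RA than the lowest detectable signal (unadjusted p of 0.0359, adjusted p = 0.417). It was not called. The receptors of S100A8 and S100A9 did not pass either, with *Tlr4* at 0.19 (SE 0.06, unadjusted p of 0.0188) and *Ager* at -0.02 (SE 0.06). *Myh9*, the myosin bound by S100A4, was at 0.19 (SE 0.12) and *Plat* at -0.04 (SE 0.05). *Fpr1*, a formyl peptide receptor gene, was at -0.12 (SE 0.06), with the probe well above background on only 4 of 8 arrays in each channel. The median over the 13 genes was 0.03. Neither *Pla2g4a* nor *Anxa4* was called with plain background subtraction, with Agilent's log ratio, or without arrays 3 and 7, 6 and 4, 6 and 5, 6 and 7, 8 and 5 or 8 and 7.

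**Figure D3:**
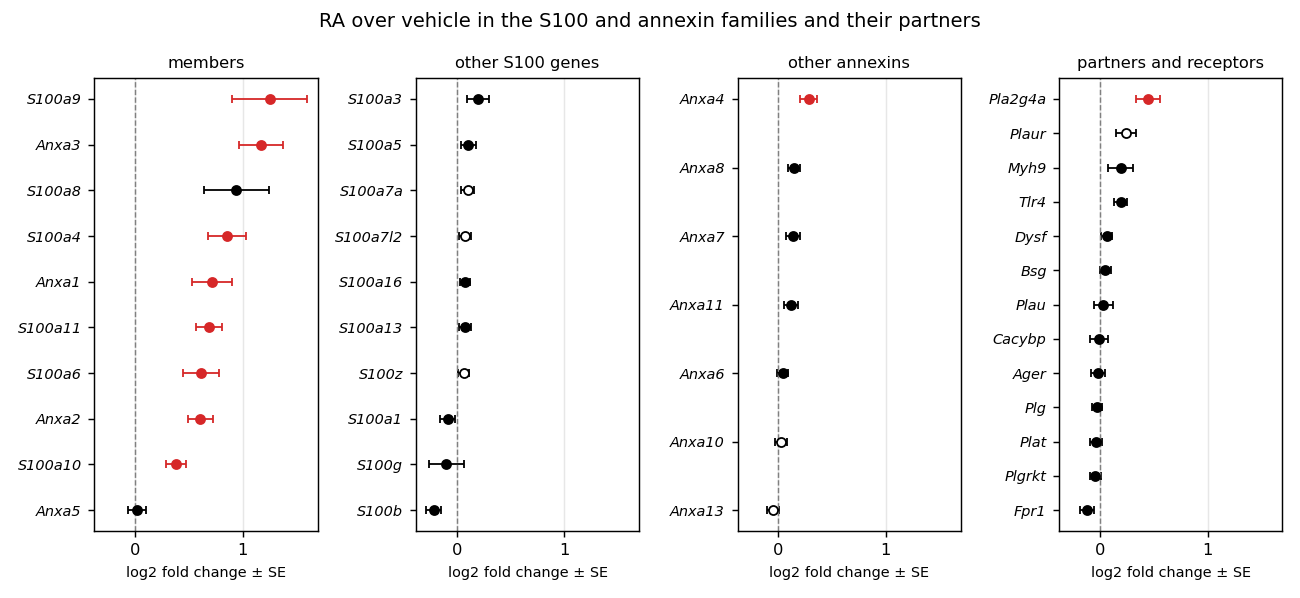
Log2 fold change of RA over vehicle with its SE (horizontal axis) for the 10 members, the other S100 genes, the other annexins and the partners and receptors (vertical axes). Red marks genes called at an unadjusted p under 0.01, and open circles probes that were not well above background on any array in at least 1 channel. The members lie to the right of 0, with *Anxa5* next to it, whereas the other lists centre near 0 with *Anxa4* and *Pla2g4a* called.

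Markers of some cell types were called as well. Of 12 reactive astrocyte markers measured, 10 were called higher and 0 lower, with a median of 1.37 and the largest values in *Cp* (2.60), *Hspb1* (2.21) and *Timp1* (2.19). The log2 of their summed level was 13.33 to 15.61 in RA and 12.41 to 13.14 in vehicle. Of 9 monocyte and macrophage markers, 6 were called higher (median 0.50, led by *Cd14* at 1.43, *Lyz2* at 1.30 and *Cd68* at 1.07), with summed levels of 13.38 to 15.46 in RA and 12.66 to 13.63 in vehicle. Of 9 microglia markers, *Aif1* (0.88) and *Itgam* (0.87) were called higher and *Tmem119* (-0.52) lower (median -0.02), with summed levels of 14.22 to 14.87 and 14.08 to 14.52. Their part in the S100 and annexin values was not tested.

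For *S100a8* and *S100a9* the neutrophil list is the closest by textbook knowledge. Of its 10 measured genes, 1 was called higher (*Csf3r*, 0.42, SE 0.11), and the median was 0.02. *Elane*, *Ctsg*, *Ltf* and *Mmp8* were not well above background on any array, and *Mmp9* was so on 1 array in RA and on none in vehicle. The summed level was 9.84 to 10.17 in RA and 9.85 to 9.95 in vehicle, so the ranges overlapped. Only 2 of the 10 genes were well above background in both channels of all 8 arrays, so much of this sum may be background. On arrays 6 and 7, where *S100a9* was highest, the median of the neutrophil list was 0.20 and 0.20, and *Csf3r* was at 1.02 and 0.71. The part of neutrophils in the calprotectin values was not tested.

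Arrays 6 and 7 also differed from the others in choroid plexus markers. Their median over 11 genes was -1.35 on array 6 and -1.27 on array 7, against 0.03 to 0.49 elsewhere, and *Ttr*, the transthyretin gene, was at -4.48 and -5.11. None of the 11 genes was called in limma over all 8 arrays, none had an unadjusted p under 0.05, and the summed level was 12.48 to 17.15 in RA and 12.41 to 18.00 in vehicle. Without these arrays, the median log2 fold change of the 10 S100 and annexin genes was 0.47, against 0.70 with them, and 9 were called. The part of the choroid plexus difference in these values was not tested. Of 10 astrocyte markers, *Slc4a4* (-0.28) and *Gja1* (-0.22) were called lower, and *Gjb6* was at -0.33 and not called (list median -0.11), and of 10 oligodendrocyte markers 2 were called lower (median -0.22). In the ependymal and tanycyte, endothelial, and fibroblast and meningeal lists 0 genes were called in limma, with medians of 0.00, -0.01 and -0.01, and 0, 1 and 0 genes had an unadjusted p under 0.05. Of 9 neuron markers 1 was called lower (median -0.09), as was 1 of 14 neuropeptide genes (median -0.05).

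**Figure D4:**
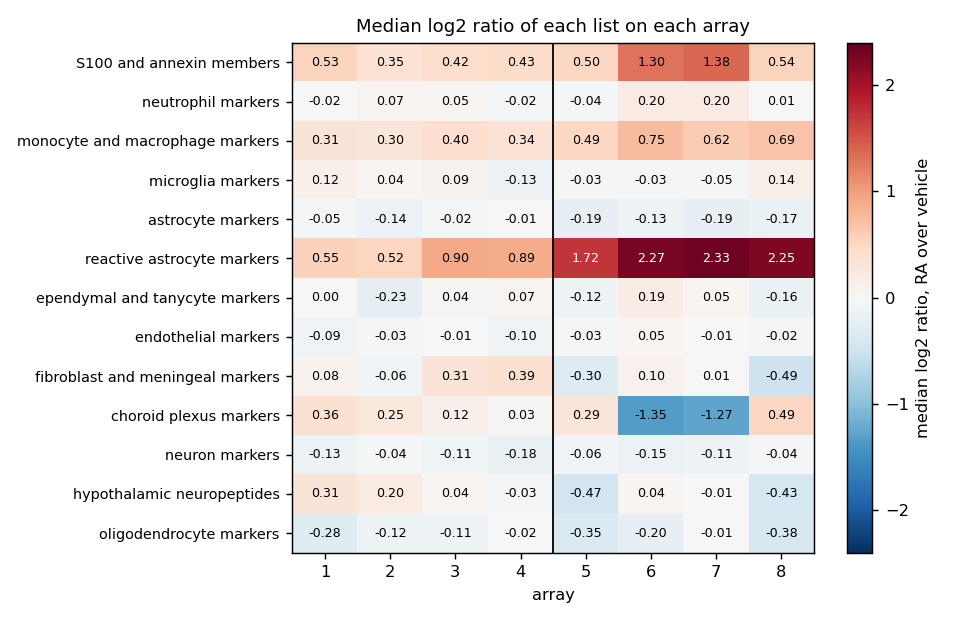
Median log2 ratio of RA over vehicle of the 10 members and of each cell type list (vertical axis) on each array (horizontal axis), as colour and number, with a line between slide rows. The members are highest on arrays 6 and 7, the reactive astrocyte list is higher throughout row 2, and the choroid plexus list is below -1 on arrays 6 and 7 alone.

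The genes whose ratios ran closest to the median of the 10 members over the 8 arrays, among genes well above background throughout, were *Folr2*, a folate receptor of macrophages (mean absolute difference 0.111), *Plp2* (0.115), the replication helicase subunit *Mcm2* (0.149), *Tagln2* (0.163) and *Tgfbi* (0.168), all in log2 units. *Folr2* was at 1.44 and 1.48 on arrays 6 and 7 and between 0.28 and 0.77 on the others. These 5 had log2 fold changes of 0.61 to 0.71 and were higher on all 8 arrays, which follows from picking them by closeness to the members' median. Between members and marker genes, chosen after the values were seen, *S100a6* and *Anxa1* ran closest to *Vim* (mean absolute difference 0.170 and 0.229 over 8 arrays) and *S100a8* and *S100a9* to *Serpina3n* (0.501 and 0.480). That last match was loose, since *Serpina3n* was at 1.51 and 2.13 on arrays 5 and 8, where *S100a8* was at 0.57 and 0.51. *S100a11* ran closest to *Adgre1* (0.143), *Anxa3* to *Lyz2* (0.310), *S100a4* to *Itgam* (0.252), *S100a10* to *Csf1r* (0.170) and *Anxa2* to *Csf3r* (0.202). Genes of another cell type list were nearly as close, so a first match does not single out a cell type. They were *Clec10a* for *S100a10* (0.178) and *Anxa2* (0.205), and *Aspg* for *S100a11* (0.157). The likeness is a description over arrays that partly share RNA and dye order, and the 119 marker genes compared came from several cell types.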

How the data were processed

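RNA from the hypothalamus of 4 rats given RA and 4 given vehicle was compared on 8 two-colour arrays in both dye orders. Per array, the authors deposited spot files with the intensity in each dye and Agilent's log10 ratio, and for the series a table of normalised log2 ratios, which matched loess ratios without background correction and with the sign turned to RA over vehicle. Their methods used loess, averaged identical probes and fitted limma with the dye-swap as block. Agilent's marks for outliers and for signal well above background were also deposited (score 0 or 1 per spot).

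Here, R 4.3.3 and limma 3.58.1 were used. Median spot intensities were corrected by normexp (offset 50), control spots (58717 of 62976 spots were kept) and outlier spots (0.913% to 2.42%) were dropped, loess was applied within arrays, and spots of a probe were averaged. Levels are channel values after loess and Aquantile, and at least 0.5 of a probe's spots had to carry the mark for it to be well above background. A lower bound sets the mean RA level against the lowest signal well above background. Each probe was fitted on 4 pair means, in all 24 pairings, with moderated variances and Benjamini-Hochberg adjustment. The number of arrays limits precision. Probes were named through transcript accessions of GRCr8 (18006 of 30367), with the brightest probe per gene. The test was checked on simulated data.

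Members and lists were chosen with earlier results of these data known. An item of the partner list is not reported here. Named are all members, the called and up to 5 most changed genes of the family and partner lists, up to 3 genes per marker list, and the 5 genes closest to the members' median. Genes named beyond this rule (*Ager*, *Plat*, *Vim*, *Serpina3n*, the marker genes closest or next closest to a member and genes named as not well above background) were chosen after their values were seen. Alternatives were other background corrections, the deposited ratios, other scaling, only bright probes, outlier spots kept, other pairings, single dye orders or slide rows, all probes of a gene, and 16 couples of arrays left out.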

Additional observations from a re-analysis of the deposited data

Results flagged for a closer look

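Among 52 groups of 4 arrays searched, 1 array stood apart from the other 3 in 4 cases, where about 2.6 would be found by chance (1 in 20). On array 6, *S100a6* had a ratio of 1.18, where the other arrays with RA in Cy5 ranged from 0.09 to 0.27. The median of the 10 S100 and annexin genes was 1.30 on array 6, against 0.42 to 0.54 on the other arrays of that dye order. On array 7 it was 1.38, against 0.35 to 0.50 on the other arrays with RA in Cy3. The median of the choroid plexus markers was -1.27 on array 7, against 0.03 to 0.29. The part of choroid plexus tissue in the S100 and annexin values was not tested.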

How the results depend on the processing

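Under 33 alternatives, the median log2 fold change of the 10 genes stayed between 0.46 and 0.89 (0.47 to 0.82 with 1 array of each dye order left out), and the number of genes called, 8 as reported, stayed within 1.5 times in 29. It was 2 with plain background subtraction, 1 with Agilent's log ratio and 5 with RA in Cy5 alone, and 5 to 9 with 1 array of each order left out (5 without arrays 1 and 4). Calls in the other S100, annexin and partner lists, 2 as reported, were 0 with plain subtraction and with Agilent's log ratio, 4 with a random block for pairs, 6 with 8 independent arrays, 9 with the lowest p over pairings, 1 in row 1, 7 with slide row as a block, and 0 to 3 with arrays left out. *Anxa5* changed sign with Agilent's log ratio (-0.0078), with RA in Cy3 alone (-0.0785), in row 2 (-0.0944) and with 1 array of each order left out (range -0.0813 to 0.108). The cause was not tested. Over all probes, 988 were called as reported, against 239 with plain subtraction, 325 with Agilent's log ratio, 1647 with a random block, 2483 with independent arrays, 3903 with the lowest p, 3110 with slide row as a block, 2168 and 2317 with RA in Cy5 or Cy3 alone, 776 and 1462 in row 1 or row 2 alone, and 456 to 1110 with arrays left out. With an adjusted p under 0.05 there were 0 of the 10 genes and 0 of all 30367 probes as reported. In row 1 alone there were 1 gene and 75 probes, and in row 2 alone 3 genes and 640 probes, each from 2 pair means. The random block gave 4 genes and 238 probes, and independent arrays 8 genes and 934 probes. The lowest p gave 9 genes and 2908 probes, but it was picked per probe among 24 pairings and is not a valid test. Slide row as a block gave 9 genes and 2060 probes. The fit with slide row as a block also took the 8 arrays as independent, although rats were measured more than once. Signal over background limits *S100a8*, whose vehicle signal was not well above background on 1 array. *S100a9* was well above background on all 8 arrays, but its vehicle level was low as well (mean 7.06).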
